A study of Caenorhabditis elegans with 12 samples.

Results

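The ugt genes of Caenorhabditis elegans encode UDP-glycosyltransferases, the family that includes the glucuronosyltransferases. The members described here were chosen by name alone: every gene whose listed name is ugt followed by a number, which gave 63 of the 16309 genes in the authors' deposited table. They were followed in whole animals at the late L4 larval stage of 3 mutants and wild type, with 3 RNA-seq samples per genotype. The mir-58 mutant is strain MT15024, genotype mir-58(n4640) IV. The double mutant, strain MT18409, carries nDf53 on chromosome III beside n4640, and its title names mir-80 and mir-58. The quadruple mutant, strain MT15563, has nDf54 on the X chromosome in addition, and its title adds mir-81 and mir-82. Wild type is N2 Bristol. All 3 mutants carry the n4640 allele, and each genotype is represented by 1 strain. Animals of every genotype were fed light-labelled bacteria, per the labels' protocols. The mir-58 mutant and wild type were collected 33 h after transfer to food. The double mutant was collected 6 h later than wild type and the quadruple mutant 15 h later, because both developed slowly. For these strains, effects of genotype and of collection time cannot be told apart. Whether the 3 samples of a genotype are separate cultures is not stated, and the p-values may thus reflect technical spread alone.

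UDP-glycosyltransferases sit in the membrane of the endoplasmic reticulum and move a sugar from a UDP-sugar onto small fat-soluble molecules, which become easier to excrete. They belong to phase II of detoxification, which acts on foreign compounds and on the animal's own metabolites, often after oxidation by the cytochrome P450 enzymes of phase I. Glutathione transferases are another large phase II family, and ABC transporters pump conjugates out of cells. In worms, glucose is a common sugar on such conjugates, and the intestine is a main site of these reactions. The sources used here give no substrate for single ugt members, so each is described by its place and its values.

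The measurements are the authors' own comparisons, 1 log2 fold change and 1 adjusted p-value per gene for each mutant over wild type. A gene is called higher or lower where the adjusted p-value is under 0.05. Without values per sample, which were not analysed here, neither depth nor replicate spread is known, and levels of different ugt genes cannot be compared. In whole animals, fewer cells of a type and less RNA per cell cannot be told apart, and marker levels that could check the late L4 label in each genotype are not known. Fold changes of markers linked to stage, such as sperm genes and an adult collagen gene, differed widely between the mutants and are given with the tissue markers. The deleted microRNAs are not among the listed names, so their loss was not measured. The 3 comparisons share the same wild type samples, so values for the 3 mutants are set side by side and no agreement between them is counted as a result.

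Lower calls outnumbered higher calls among the ugt genes in the double and the quadruple mutant. In the quadruple mutant 19 of 63 ugt genes (30.2%) were called lower and 5 (7.94%) higher, against 9.82% lower and 14.2% higher among all listed genes. In the double mutant 13 (20.6%) were lower and 1 (1.59%) was higher, against 5.86% lower and 10.5% higher among all listed genes. In mir-58, where 2 members fell and 2 rose (3.17% each), the shares among all listed genes were 5.79% lower and 1.65% higher, so this strain gave few calls in the family. No test of the family as a list was made. In all, 26 members were called in at least 1 mutant and 37 in none.

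**Figure D1:**
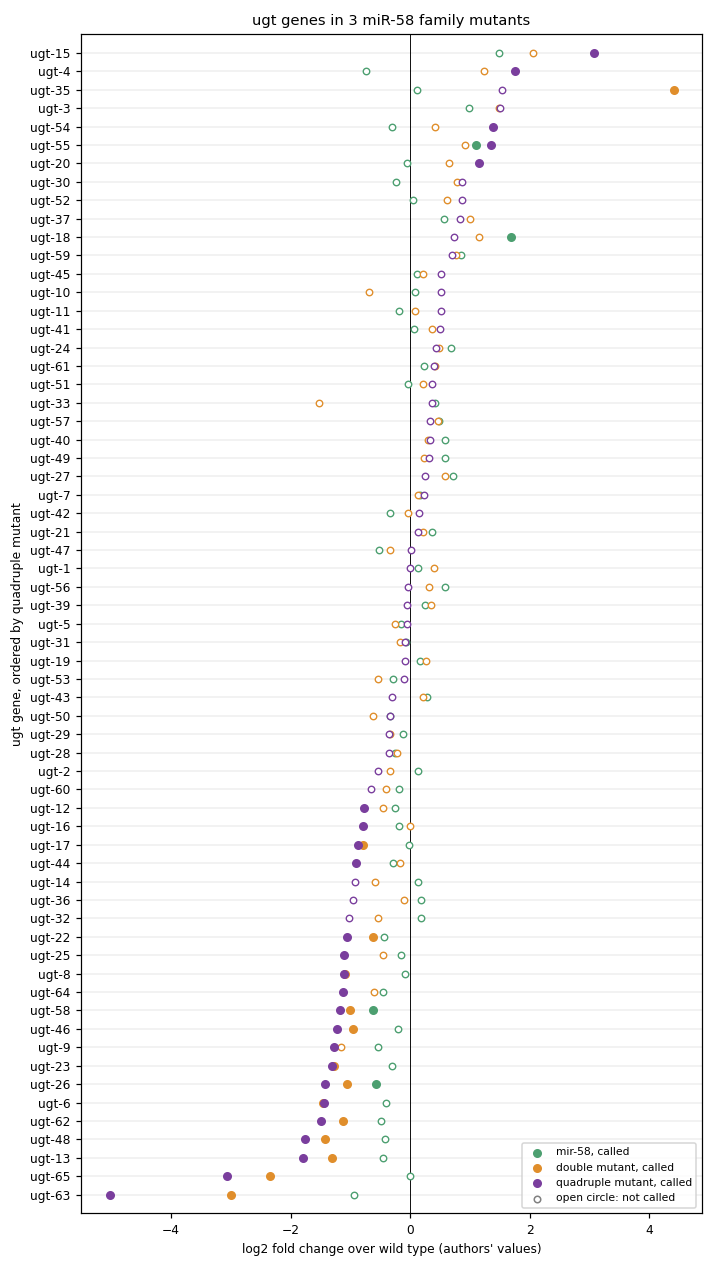
Log2 fold change over wild type (x axis) of the 63 ugt genes (y axis, ordered by the quadruple mutant) in mir-58, the double and the quadruple mutant. Filled circles are called at an adjusted p-value under 0.05 and open circles are not; ugt-63 and ugt-65 lie farthest to the left and ugt-35 in the double mutant farthest to the right.

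The median of the family lay near 0 in every mutant, and in the multiple mutants a larger share of its members than of all genes lay well below 0. With mir-58 before the double and the quadruple mutant, median log2 fold changes of the 63 genes were -0.03, -0.10 and -0.06, against -0.06, 0.08 and 0.11 for all listed genes. The 25th percentile was -0.62 in the double mutant and -0.99 in the quadruple one, where all listed genes had -0.32 and -0.37. A decrease of at least 2-fold, called or not, was listed for 12 members (19%) in the double mutant against 5.19% of all listed genes. The quadruple mutant had 16 such members (25.4%) against 7.49%. Increases of that size were fewer than among all genes, with 7 members (11.1%) against 18.6% in the quadruple mutant and 6 (9.52%) against 14.9% in the double mutant.

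**Figure D2:**
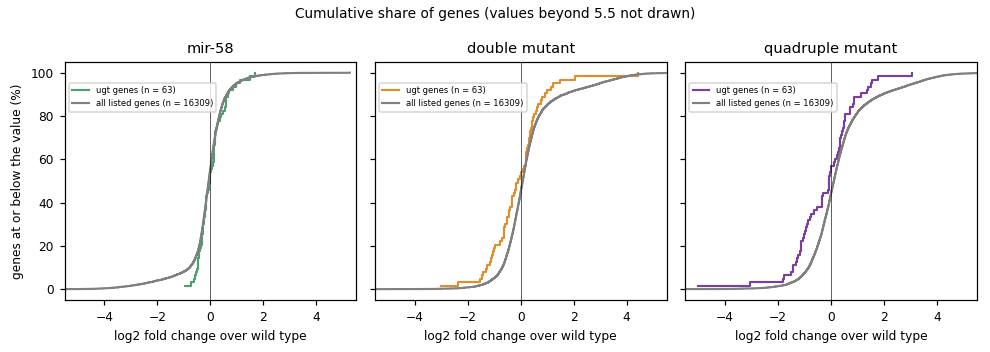
Cumulative share of genes in percent (y axis) at or below each log2 fold change over wild type (x axis), for the 63 ugt genes in colour and all 16309 listed genes in grey, in 1 panel per mutant. In the double and quadruple mutant the ugt curve lies left of the grey curve over most of its lower range, and in mir-58 the lowest ugt value, -0.94, lies inside the grey curve's lower tail.

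The largest decreases were those of ugt-63 and ugt-65. Taking mir-58, the double mutant and the quadruple mutant in turn, the authors' deposited table gives ugt-63 log2 fold changes of -0.94, -3.0 and -5.03, with adjusted p-values of 0.0710, 6.19e-05 and 8.16e-09. The quadruple mutant value equals a transcript level 32.7-fold below wild type. The gene lies on chromosome V with no other ugt gene beside it. Of the genes on either side, C04F5.8 had -0.30, -0.32 and -0.42 and srab-3 had -1.25, -0.11 and 0.41 by the authors' deposited table. None of these values was called.

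For ugt-65, on chromosome IV, the authors' deposited table gives -0.01, -2.35 and -3.06 in the same order, with adjusted p-values of 1, 2.21e-14 and 3.19e-20. No member had a smaller adjusted p-value in either multiple mutant. The gene was close to its wild type value in mir-58 and 8.34-fold below it in the quadruple mutant. In the annotation ugt-65 overlaps the cuticle collagen gene col-130 on the other strand, and the sources used here do not say whether counting used strand. The collagen showed another order of values, -1.46, -0.59 and -0.94 per the authors' deposited table, with calls in mir-58 (adjusted p = 1.29e-15) and the quadruple mutant (adjusted p = 2.04e-03). The neighbour on the other side, F08G5.3, stood within 0.06 of 0 in all 3 comparisons of the authors' deposited table.

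A further group of ugt genes was called lower in both multiple mutants, with smaller decreases. With mir-58 given before the double and the quadruple mutant, the authors' deposited table lists ugt-13 at -0.45, -1.30 and -1.79 (adjusted p = 0.269, 6.97e-04 and 4.22e-06). Values of ugt-48 were -0.42, -1.42 and -1.76 by the authors' deposited table (adjusted p = 0.189, 3.12e-06 and 2.66e-08). For ugt-62 they were -0.48, -1.13 and -1.5 per the authors' deposited table (adjusted p = 0.0862, 4.14e-05 and 1.29e-07). None of these 3 genes was called in mir-58, although all 3 values there were below 0. On chromosome V, ugt-6 reached -1.46 in the double mutant and -1.44 in the quadruple one by the authors' deposited table (adjusted p = 2.93e-06 and 9.23e-06), with -0.40 in mir-58. On chromosome X, the authors' deposited table has ugt-23 at -1.27 and -1.31 (adjusted p = 2.48e-05 and 2.52e-05) and -0.31 in mir-58. Both genes thus had nearly the same value in the double and the quadruple mutant. The other called X-linked member, ugt-46, was listed at -0.95 and -1.23 by the authors' deposited table (adjusted p = 6.56e-04 and 1.22e-05).

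Another 3 genes were called lower in both multiple mutants, with larger adjusted p-values. The authors' deposited table puts ugt-22 at -0.62 in the double mutant and -1.06 in the quadruple one, with adjusted p-values of 0.0499 and 2.48e-04. The next, ugt-17, was at -0.79 and -0.88 per the authors' deposited table (adjusted p = 0.0167 and 6.33e-03). A similar pair of values was found for ugt-8, with -1.09 and -1.11 by the authors' deposited table (adjusted p = 0.0228 and 0.0160). That double mutant call of ugt-22 lies just inside the threshold, and ugt-9, at -1.16 with an adjusted p-value of 0.0515 in the authors' deposited table, lies just outside it. With all deletions combined, ugt-9 was called, at -1.27 by the authors' deposited table (adjusted p = 0.0228).

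The 2 ugt genes called lower in mir-58 were ugt-58 and ugt-26. Across mir-58, double and quadruple mutant, ugt-58 had -0.62, -1.01 and -1.17 by the authors' deposited table (adjusted p = 0.0131, 3.41e-04 and 4.31e-05). Corresponding values of ugt-26 were -0.57, -1.06 and -1.43 per the authors' deposited table (adjusted p = 0.0258, 1.39e-04 and 4.71e-07). Neither mir-58 value reached 2-fold.

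A further 5 members were called lower in the quadruple mutant that had smaller, uncalled values below or at 0 in the double mutant. The authors' deposited table has ugt-64 at -1.12 (adjusted p = 1.26e-03) in the quadruple mutant, against -0.61 in the double mutant. Likewise ugt-25 was at -1.11 (adjusted p = 1.93e-03) and -0.45, and ugt-44 at -0.91 (adjusted p = 4.51e-03) and -0.17, by the authors' deposited table. The smallest decreases called were those of ugt-12, at -0.77 (adjusted p = 8.75e-03), and ugt-16, at -0.79 (adjusted p = 0.0314), against -0.45 and 0 for the double mutant of the authors' deposited table. Whether any of these genes differed between the quadruple and the double mutant was not tested.

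Fewer ugt genes rose. For the quadruple mutant, the authors' deposited table has ugt-15 at 3.07 (adjusted p = 6.60e-03), an 8.40-fold increase; its values of 1.48 for mir-58 and 2.05 for the double mutant were uncalled (adjusted p = 0.485 and 0.181). The next was ugt-4, at 1.76 by the authors' deposited table (adjusted p = 6.37e-04), whereas mir-58 had -0.74 and the double mutant 1.23 (adjusted p = 0.352 and 0.0612). The authors' deposited table also calls ugt-54 at 1.39 (adjusted p = 6.41e-03), ugt-55 at 1.36 (adjusted p = 0.0142) and ugt-20 at 1.15 (adjusted p = 0.0253). Of the 2 members that rose in mir-58, ugt-18 was at 1.68 per the authors' deposited table (adjusted p = 4.70e-05), and ugt-55 at 1.11 (adjusted p = 0.0219). For ugt-18 the double mutant had 1.16 and the quadruple mutant 0.73 by the authors' deposited table, both uncalled (adjusted p = 0.0941 and 0.391).

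The member with the highest value was ugt-35 in the double mutant, at 4.41 by the authors' deposited table (adjusted p = 1.79e-04), a 21.3-fold increase. The authors' deposited table lists ugt-35 at 0.12 for mir-58 and 1.54 for the quadruple mutant, neither called (adjusted p = 1 and 0.517). Without values per sample it cannot be seen how many of the 3 double mutant samples carry the increase. In the annotation ugt-35 overlaps the aquaporin gene aqp-6 on the other strand, which had an uncalled value of -0.76 in that mutant by the authors' deposited table.

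The 37 members called in no mutant ranged from -0.52 (ugt-47) to 0.98 (ugt-3) in mir-58, from -1.53 (ugt-33) to 1.49 (ugt-3) in the double and from -1.02 (ugt-32) to 1.5 (ugt-3) in the quadruple mutant of the authors' deposited table. Of them, 28, 25 and 23 lay within 0.5 of 0 in the 3 mutants. Size and call did not run in parallel. The largest uncalled values were 1.48 (ugt-15), 2.05 (ugt-15) and 1.54 (ugt-35) across mir-58, double and quadruple mutant, whereas decreases as small as 0.57 (ugt-26), 0.62 (ugt-22) and 0.77 (ugt-12) were called in the authors' deposited table. A missing call for a gene such as ugt-3 or ugt-33 therefore does not show that it was at its wild type level.

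Differences between successive genotypes can be formed from the fold changes, which share the same wild type samples, but they carry no test. The wild type cancels in full only if it was scaled alike in the 3 comparisons, which is not stated. Unlike scaling would shift all differences of a step by the same amount. From mir-58 to the double mutant, 41 of 63 ugt genes (65.1%) had a negative difference, against 46.7% of all listed genes, with medians of -0.18 and 0.04. From the double to the quadruple mutant 39 (61.9%) had one, against 49.8%, with medians of -0.09 and 0. The steps differed from gene to gene. The difference for ugt-65 was -2.34 at the first step and -0.71 at the second, and for ugt-63 it was -2.06 and -2.03, computed from the authors' deposited table. For ugt-6 they were -1.06 and 0.02, and for ugt-23 -0.96 and -0.04, again from the authors' deposited table. On the higher side ugt-15 had differences of 0.57 and 1.02, and ugt-35 had 4.29 and then -2.87, the highest value of the family at the first step and the lowest at the second.

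Many ugt genes lie side by side. In the annotation, 28 of the 63 members stand next to another ugt gene, in 10 arrays, and 9 arrays hold at least 2 listed members. The longest, on chromosome V, has 7 ugt genes in a row, of which 6 are listed. Calls often differed between adjacent members, but a call in only 1 gene of a pair need not mean different fold changes. In the quadruple mutant ugt-14, uncalled at -0.93, lay 0.18 from ugt-8, called at -1.11, by the authors' deposited table. Some genes count in more than 1 pair. In that mutant 38.1% of the members and 24% of all listed genes were called, and the numbers for unrelated pairs were not computed. Of 17 pairs of adjacent listed members, 12 had 1 gene called and the other not in the quadruple mutant, 2 had calls in opposite directions, 3 had no call, and no pair had both genes called in the same direction. In the double mutant 5 pairs had 1 called gene and 12 had none, and in mir-58 the numbers were 3 and 14.

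The array of ugt-5, ugt-4, ugt-6 and ugt-3 on chromosome V is an example in which all 4 genes share a strand. By the authors' deposited table they were at -0.06, 1.76, -1.44 and 1.5 in this order in the quadruple mutant, of which ugt-4 rose, ugt-6 fell and the outer genes were uncalled. The other pair with opposite calls was ugt-16 and ugt-15, at -0.79 and 3.07 per the authors' deposited table, in an array with ugt-18. On chromosome I, the outer genes ugt-26 and ugt-25 fell, at -1.43 and -1.11, while the inner genes ugt-27 and ugt-28 were uncalled at 0.25 and -0.35 in the quadruple mutant of the authors' deposited table. In the array of 7, ugt-9, ugt-8 and ugt-13 were called lower in that mutant, and between them ugt-10 and ugt-14 stood at uncalled values of 0.52 and -0.93 by the authors' deposited table. Adjacent ugt genes can be close copies of each other, and how reads shared by copies were counted is not given in the sources used here, so values within arrays are uncertain.

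**Figure D3:**
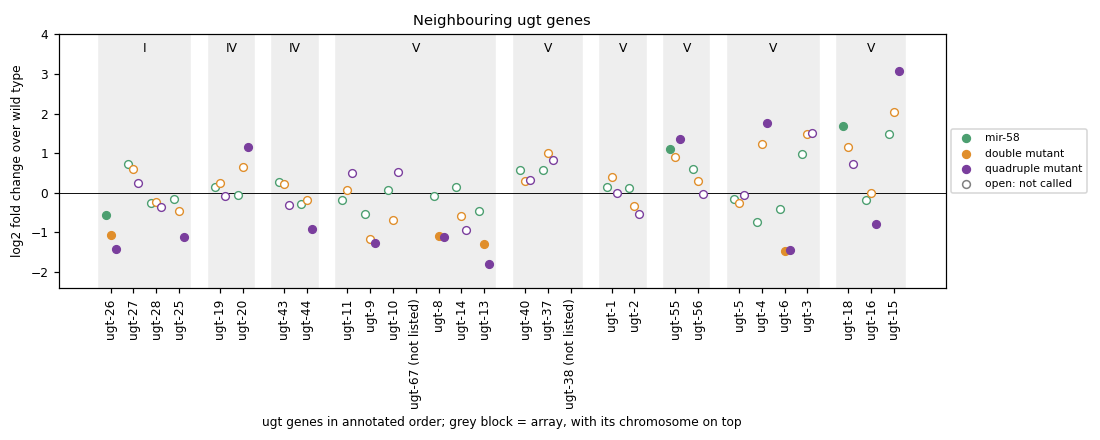
Log2 fold change over wild type (y axis) of ugt genes in the 9 arrays with at least 2 listed members, in annotated order along the x axis, with the chromosome above each grey block. Filled circles are called and open circles are not; in the block of ugt-5, ugt-4, ugt-6 and ugt-3, ugt-4 at 1.76 and ugt-6 at -1.44 lie on opposite sides of 0.

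Lower calls came both from members in arrays and from members standing alone. Among all listed genes 9.82% were lower and 14.2% higher in the quadruple mutant, and 5.86% and 10.5% in the double mutant. Shares of all genes by chromosome or arrangement were not computed. Several of the groups below are very small, so no pattern of place is read from them. Of the 35 without an adjacent ugt gene, 11 were lower and 1 was higher in the quadruple mutant, and 9 were lower and none higher in the double mutant. Of the 28 in arrays, 8 were lower and 4 higher in the quadruple and 4 lower and 1 higher in the double mutant. Chromosome V holds 39 members, of which 10 were lower and 3 higher in the quadruple mutant. Chromosome IV holds 12, with 3 lower and 2 higher. The remaining chromosomes hold 12 members together, and there 2 of 5 on chromosome I, the single member on chromosome II, 1 of 2 on chromosome III and 2 of 4 on the X chromosome were lower in the quadruple mutant, with no member higher. Overlap with another annotated gene was found for 13 members, in 3 of them on the same strand. They include ugt-22, ugt-25, ugt-48, ugt-64 and ugt-65 of the lower group, and ugt-55, which shares its strand with T04H1.12, and ugt-35 of the higher group. The gene that overlaps ugt-48, cft-1, had an uncalled -0.15 in the quadruple mutant by the authors' deposited table. The one that overlaps ugt-64 on the other strand, C07G3.10, lay in the same direction as ugt-64, at -1.96 for the double mutant and -3.07 for the quadruple one by the authors' deposited table, without a call (adjusted p = 0.427 and 0.221).

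Listed genes beside called members, other than ugt genes, mostly gave no call, as did most listed genes. Beside the lower members of the quadruple mutant stood 15 such genes, of which 2 were called lower and 1 higher. Among all listed genes 9.82% were lower and 14.2% higher in that mutant. Beside the lower members of the double mutant stood 12, of which 1 was lower and 1 higher, against 5.86% and 10.5% of all listed genes. With so few neighbours these counts do not set them apart from other genes. Beside ugt-13, H23N18.5 was called lower in all 3 mutants, whereas ugt-13 was called in the double and the quadruple mutant only. Values of H23N18.5 were -0.79, -1.01 and -1.36 across mir-58, double and quadruple mutant of the authors' deposited table (adjusted p = 1.37e-03, 8.87e-04 and 9.63e-06). In the quadruple mutant col-130 beside ugt-65 was also lower, and cdh-4 beside ugt-62 was the higher one. Next to ugt-54, which rose in the quadruple mutant, T25B9.6 was at -2.85, 3.4 and 3.22 by the authors' deposited table, called in every mutant (adjusted p = 4.38e-05, 4.58e-15 and 5.87e-13). Whether neighbours and ugt genes moved together was not tested.

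Other genes of the pathway were read from lists of enzymes, transporters and regulators. A list of 12 names around UDP-sugars, 10 of them listed, also holds genes that use these sugars, so it does not describe their supply alone. By the authors' adjusted p-values 2 genes (20%) were lower in the quadruple and 1 (10%) in the double mutant. The shares of all listed genes were 9.82% and 5.86%. None was lower in mir-58, and none was higher in any mutant. Called in both multiple mutants was cgt-3, a ceramide glucosyltransferase gene. It was at -0.78 for the double mutant and -0.75 for the quadruple one by the authors' deposited table (adjusted p = 6.58e-03 and 0.0124). Unadjusted p-values were not analysed here. Among 69 cytochrome P450 genes higher calls outnumbered lower calls, as they did among all listed genes in the multiple mutants. In the quadruple mutant 13 P450 genes were higher (18.8%) and 4 lower (5.8%), against 14.2% and 9.82% of all listed genes. In the double mutant 12 were higher (17.4%) and 4 lower (5.8%), against 10.5% and 5.86%. For mir-58 there were 3 higher (4.35%) and 1 lower (1.45%), against 1.65% and 5.79%. The P450 gene with the smallest p-value, cyp-13A5, reached 3.53 in the quadruple mutant by the authors' deposited table (adjusted p = 1.54e-20). Of 47 glutathione transferase genes 7 were higher (14.9%) and 5 lower (10.6%) in the quadruple mutant, shares close to those of all listed genes, with gst-39 at 1.69 and gst-13 at -1.52 by the authors' deposited table (adjusted p = 3.08e-09 and 2.21e-07). In the double mutant 3 glutathione transferase genes were higher and 3 lower (6.38% each), against 10.5% and 5.86% of all listed genes. In mir-58, 1 was higher (2.13%) and 2 lower (4.26%), against 1.65% and 5.79%. The difference between the ugt family and either of these families was not tested.

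Short-chain dehydrogenases, oxidoreductases of lipids and steroids among others, fell in 8 of 30 cases (26.7%) and rose in 1 (3.33%) in the quadruple mutant. Their share of lower calls was near the 30.2% of the ugt genes and above the 9.82% of all listed genes. In the double mutant and in mir-58 alike, 4 fell (13.3%) and 1 rose (3.33%). All listed genes had 5.86% lower and 10.5% higher in the double mutant, and 5.79% and 1.65% in mir-58. For the quadruple mutant the authors' deposited table has dhs-3 at -1.94 (adjusted p = 2.99e-12) and dhs-16, the member that rose, at 2.38 (adjusted p = 4.62e-12). Genes of the ABC family moved both ways. They were taken by gene name, abcf and pmp genes included, so the list does not describe export of conjugates alone. In the quadruple mutant 12 of 51 were higher (23.5%) and 8 lower (15.7%), against 14.2% and 9.82% of all listed genes. Double mutant calls were 11 higher (21.6%) and 7 lower (13.7%), against 10.5% and 5.86%. In mir-58, 2 were called in each direction (3.92% each), against 1.65% higher and 5.79% lower among all listed genes. The half-transporter gene haf-4, at -1.53, and the multidrug resistance gene mrp-4, at -1.52, were among the lower ones of the authors' deposited table (adjusted p = 2.67e-08 and 1.31e-07), and wht-5, at 3.48, was the most strongly called of the higher ones (adjusted p = 5.92e-16). Of 15 regulators of detoxification, 2 were higher (13.3%) and 1 lower (6.67%) in the quadruple mutant, against 14.2% and 9.82% of all listed genes. In the double mutant 1 was higher and 1 lower (6.67% each), against 10.5% and 5.86%, and none was called in mir-58. Those of the quadruple mutant were pqm-1, a zinc finger factor gene, at 1.14, aha-1, the partner of the aryl hydrocarbon receptor, at 0.87, and the nuclear receptor gene nhr-114 at -1.19 by the authors' deposited table (adjusted p = 6.84e-05, 9.31e-03 and 2.12e-05). Conserved regulators on the list, skn-1 and ahr-1, gave no call in any mutant, and stood at 0.40 and 0.34 in the quadruple mutant by the authors' deposited table. The list of carboxylesterases and the sulfotransferase had 2 listed genes, ges-1 and ssu-1, neither of them called, at 0.07 and -1.34 in the quadruple mutant per the authors' deposited table.

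**Figure D4:**
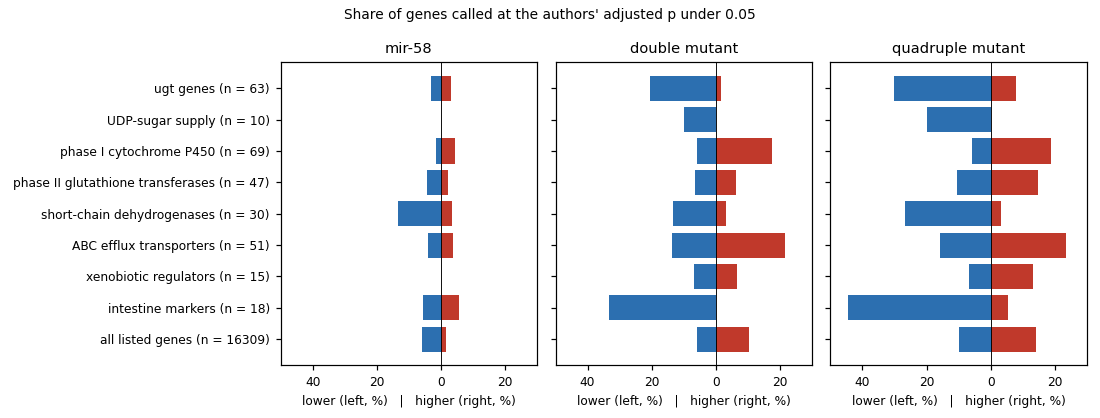
Percent of genes called lower (blue, to the left) and higher (red, to the right) at an adjusted p-value under 0.05 in each mutant (panels), for the ugt genes, lists of related genes, intestine markers and all listed genes, with the number of listed genes beside each name. In the quadruple mutant the ugt bar reaches 30.2% lower and 7.94% higher, and the cytochrome P450 bar 5.8% lower and 18.8% higher.

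Markers of tissues and germ cells moved in the same comparisons. For comparison, 9.82% of all listed genes were lower and 14.2% higher in the quadruple mutant. The shares were 5.86% and 10.5% in the double mutant, and 5.79% and 1.65% in mir-58. Most marker lists are short, so their shares are coarse. Of 18 intestine markers 8 were lower (44.4%) and 1 higher (5.56%) in the quadruple mutant, with values from -2.14 to 0.97 and a median of -0.74. In the double mutant 6 were lower and none higher, from -2.14 to 0.79, with a median of -0.645. In mir-58, 1 was lower and 1 higher, with a median of -0.025. The intestinal acid phosphatase gene pho-1 had -1.39 in the double mutant and -2.14 in the quadruple one by the authors' deposited table (adjusted p = 7.46e-08 and 3.66e-15), while elt-2, the GATA factor that maintains intestinal fate, was within 0.07 of 0 in all 3 comparisons. All 6 body muscle markers were lower in the quadruple mutant, from -1.43 to -0.71. In the double mutant 2 were called lower and in mir-58 1, and all 6 values were below 0 in both. Sperm markers went the other way, with all 12 listed genes higher in the double and the quadruple mutant, at medians of 3.56 and 3.425, and 9 of 12 lower in mir-58, at -3.355. Oocyte markers were higher in 6 of 9 cases in the double and 5 of 9 in the quadruple mutant, and lower in 4 of 9 in mir-58. Of 12 hypodermis markers 2 were higher (16.7%) and 1 lower (8.33%) in either multiple mutant, while mir-58 had none higher and 3 lower (25%). Among them col-19, a cuticle collagen gene of the adult, was at -3.98, 4.03 and 2.84 across mir-58, double and quadruple mutant by the authors' deposited table (adjusted p = 6.85e-06, 5.88e-22 and 3.35e-08). Of 8 neuronal markers 3 were higher in mir-58 and 2 in the quadruple mutant, with none called in the double mutant. Excretory markers had 2 of 5 higher and pharynx markers 1 of 4 lower in the quadruple mutant. The part of these shifts in the values of the ugt genes was not tested.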

How the data were processed

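Transcripts of whole late L4 animals were measured by RNA-seq in 12 samples of 4 genotypes, grouped by sample title. The deposited table holds, per the file headers, 1 log2 fold change and 1 adjusted p-value per gene for each mutant over wild type, made by the authors. The submitters' processing notes name DESeq, with no version. Aligner, counting, genome build, filters and adjustment method are not given in the sources used here. As counts per sample were not analysed here, depth is unknown and no fit, replicate error or interval was computed; the quasi-likelihood test planned for counts was not run.

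Genes were called across all 16309 genes at an adjusted p-value under 0.05. Members were matched by symbol to Ensembl release 115 of WBcel235 (63 of 63), used for chromosome, strand, order and overlap of coding genes and pseudogenes; no coordinates are given because the authors' build is unknown. Members and lists were chosen with earlier results of these data known. Named were members called in any mutant, the 3 highest and lowest values, adjacent members and up to 4 called genes per list. Listed neighbours, overlapping genes and uncalled regulators were named after their values were seen. Called list genes beyond those named are given as counts, and 1 list gene is not named here. Sequences were not used here. Counting functions were tested on simulated data. Alternatives were other thresholds, minimum folds, centring and subsets of members. Python 3.11.15, numpy 2.4.6, pandas 2.3.3 and matplotlib 3.10.9 were used.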

Additional observations from a re-analysis of the deposited data

How the results depend on the processing

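The main counts of lower calls, 19 in the quadruple mutant and 13 in the double mutant, stayed within 1.5 times under every threshold, minimum fold and overlap alternative. The exception was leaving out members next to another ugt gene, an alternative chosen after seeing the data. It gave 11 of 35 in the quadruple mutant, against 19 of 63, so the smaller count came with fewer genes counted. The same alternative gave 1 higher in that mutant, 0 higher in the double mutant, and 0 higher and 1 lower in mir-58. At adjusted p under 0.01, 3 were higher in the quadruple mutant, and 1 was higher and 0 lower in mir-58. At adjusted p under 0.1, 3 were higher in the double mutant and 5 lower in mir-58. A minimum of 1.5-fold left 1 lower in mir-58, and a minimum of 2-fold left 0. Without the 13 members that overlap another gene, mir-58 had 1 higher and the double mutant 0. Shares of all listed genes called higher or lower were computed at adjusted p under 0.05 only. Counts at other thresholds and minimum folds thus do not show how the family stood beside all genes there. Medians in mir-58, the double and the quadruple mutant were 0.03, -0.18 and -0.17 after centring on all genes, -0.04, -0.06 and -0.07 without overlapping members, and -0.07, -0.33 and -0.08 without adjacent members. The means were 0.04 in mir-58 and -0.21 in the quadruple mutant. The sign of the mir-58 median thus changed with the choice. No paired analysis was possible because the table holds no values per sample; for the same reason leaving out replicates was not run. The protein identity filter was not run, as no protein sequences were used here.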

Other observations

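Annotated gene structure was compared between called and uncalled ugt genes. In the quadruple mutant the 19 lower members had a median annotated exonic length of 1726 bases (from 1542 to 2909) and a median of 8 exons, the 39 uncalled members had 1708 bases (from 1579 to 2901) and 7 exons, and the 5 higher members had 1677 bases and 8 exons. These are descriptions without a test, and the annotation may not be the one the authors used. The annotation holds 4 further ugt genes that were not analysed here.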
